A study of Mus musculus with 2 samples.

Results

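Plasmacytoid dendritic cells (pDC) of mouse spleen were found in 2 single-cell libraries by a rule on measured values: the members were chosen by their counts of messenger RNA molecules (UMIs, each molecule counted once by its barcode) of 7 genes. A cell was a member when it held at least 2 UMIs of Siglech, at least 1 UMI of Klk1, Cox6a2 and Ccr9 together, no UMI of Cd3d or Cd3e and at most 1 UMI of Cd79a, after a filter on 200 to 6000 detected genes and under 10% mitochondrial UMIs. The rule found 72 members among 25289 filtered cells, 34 of 12610 in the knockout library and 38 of 12679 in the wild-type library. The study compared spleen immune cells of C57BL/6 mice carrying an RPA1 conditional knockout (CKO) with those of wild-type (WT) C57BL/6 mice, with 1 library of droplet 3′ tags per genotype. The labels give neither the Cre driver nor the deleted exons, and no age, sex or number of pooled mice, so it is not stated whether the deletion was meant to reach pDC. Since each genotype has 1 library, nothing here has been checked against replicates or tested. Every interval is a 95% interval for counting error only, and every value describes these libraries.

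pDC are a rare dendritic cell lineage that senses viral RNA and DNA through the endosomal receptors TLR7 and TLR9 and can secrete very large amounts of type I interferon. The E protein TCF4 (E2-2) sets up their program together with SPIB, RUNX2, ZEB2 and IRF8, and in the mouse they carry the surface receptors Siglec-H and BST2 and the gut-homing chemokine receptor CCR9. RPA1 belongs to the trimeric protein RPA, which coats single-stranded DNA while cells copy or repair their genome.

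The members carried other markers of the lineage, which the rule had not used, and these set them apart from other classes to differing degrees. Tcf4 was present in all 34 CKO and all 38 WT members, at 2075 CPM in CKO and 2063 CPM in WT, where CPM is a gene's UMIs per 1000000 UMIs, both summed over the members of a library. Per cell Tcf4 ran from 7.93 to 46.2 UMIs per 10000 in CKO, with a median of 18.9, and from 7.55 to 41.5 in WT, with a median of 19.7. The ranges overlapped almost fully. The highest other gated class, B cells, held 273 CPM of Tcf4 in CKO and 240 CPM in WT. Bst2, the tetherin gene, stood at 4600.5 CPM in CKO pDC and 5418 CPM in WT pDC, 11.1 and 13.8 times the level of type 1 conventional dendritic cells (cDC1) of the same library. Runx2 reached 729 CPM in CKO and 771 CPM in WT pDC, 9.12 and 14.9 times the next class. Spib stood at 228 CPM in CKO and 266 CPM in WT pDC, against 224 and 175 CPM in B cells. Ly6d reached 1.58 times the B cell level in CKO and 1.87 times in WT. Zeb2, at 775 CPM in CKO and 657 CPM in WT pDC, lay below the 911 and 933 CPM of monocytes or macrophages. Lair1, Klra17, Cd300c and Pacsin1 stood above every other gated class in both libraries, by 3.18-fold at the least (Klra17 in WT). Of 18 listed genes of conventional dendritic cells, 11 in CKO and 12 in WT had a UMI, with 800 CPM in CKO and 1065 CPM in WT summed over the list. Xcr1, Batf3, Clec4a4, Esam, Rab7b and Snx22 had none in either library, and Zbtb46 had none in CKO and 1 in WT. The lectin gene Clec10a was present, at 154 CPM in CKO and 258 CPM in WT pDC, above the 47.0 CPM in CKO cDC2 and 124 CPM in WT cDC2 (cDC2, type 2 conventional dendritic cells). Cd209a was held by 12 of 34 CKO and 22 of 38 WT members, at 164 CPM in CKO and 255 CPM in WT. In cDC2 Cd209a stood at 822 CPM in CKO and 662 CPM in WT. Itgax stood at 40.1 CPM in CKO and 49.9 CPM in WT pDC. Of 15 listed monocyte and macrophage genes, 5 in CKO and 6 in WT had a UMI, with 2099.6 CPM in CKO and 1766 CPM in WT summed over the list and medians of 14 UMIs a cell in CKO and 15 in WT. Without the 2 mixed CKO cells described below the list summed to 1497 CPM in CKO, a ratio of 0.848 (0.749 to 0.959). Most of these UMIs were of the lysosomal protease gene Ctsb, 397 in CKO and 538 in WT, beside Ccr2, Ms4a6c, Hmox1, Lyz2 and, in WT alone, Cd14. Csf1r, Fcgr1, Adgre1, C1qa, C1qb and C1qc had no UMI in either library. Of 14 listed T cell genes, 11 in CKO and 10 in WT had a UMI, with 939 CPM in CKO and 1420 CPM in WT. Cd3g, not part of the rule, had none. Cd4 reached 321 CPM in CKO and 402 CPM in WT pDC, where T cells held 152 and 121 CPM. Of 12 listed transitional dendritic cell genes, 10 in each library had a UMI, with 5246 CPM in CKO and 4603 CPM in WT. Without the same 2 cells CKO held 4696 CPM. Of 14 listed B cell genes, 12 in CKO and 11 in WT had a UMI, with 4844 and 4972 CPM. The part of these other cell types' genes in the results below was not tested. Clec9a was detected, at 43.2 CPM in CKO and 99.8 CPM in WT, and 3 CKO and 11 WT members also met the gate for cDC1 (at least 2 UMIs of Xcr1 and Clec9a together), from which they were left out.

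Few cells lay near the Siglech edge of the rule. The lowest member held 4 Siglech UMIs in CKO and 2 in WT, and cells with exactly 1 Siglech UMI that met all other conditions numbered 0 in CKO and 2 in WT. Cells left out solely for lacking Klk1, Cox6a2 and Ccr9 numbered 3 in CKO and 7 in WT, with a median of 14 Tcf4 UMIs in CKO and 11 in WT. The Cd79a edge was fuller: 7 CKO and 3 WT members held exactly 1 Cd79a UMI, and 12 CKO and 7 WT cells with at least 2 Siglech UMIs were left out for 2 or more. Free RNA of the rule's genes was low: a Siglech UMI was held by 100% of members by choice, but by 0.168% of B cells in CKO and 0.272% of B cells in WT, at median depths of 4498.5 and 4692 UMIs. Median depth was 9337.5 UMIs and 2948 genes in CKO pDC and 9664 UMIs and 3054.5 genes in WT pDC. The barcodes shared by both libraries numbered 36, and no member was among them.

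Of the CKO members, 2 carried many UMIs of another cell type's genes. The CKO member with most UMIs, 18911, held 33 Siglech UMIs together with 1564 UMIs of S100a8, 1915 of S100a9 and 211 of Lyz2, and it contributed 99.8% of all UMIs of 12 neutrophil marker genes in the CKO pDC. A different CKO member held 14 Siglech UMIs with 47 of the killer cell granzyme gene Gzma and 63 of Ccl5. Without these cells these neutrophil markers summed to 27.3 CPM in CKO and 22.2 CPM in WT pDC, and 12 killer cell markers to 280 CPM in CKO and 316 CPM in WT. Another CKO member held 222 UMIs of interferon-response genes, where the other CKO members reached at most 117 and WT members at most 111. Values without these cells are given beside the lists and genes they bear on most.

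Of 2281 genes with at least 20 UMIs in the pDC of each library, 122 (5.35%) were at least 2-fold above all 7 other gated classes in both libraries. The top 20 by this ratio held the rule's own genes. Siglech lies at chr7:55768178-55778925, Klk1 at chr7:44225360-44229618, Cox6a2 at chr7:128205435-128206387 and Ccr9 at chr9:123678439-123784330 (mm10, GENCODE M21), and all are protein-coding. Among the others was Ctsl, encoding the endosomal protease cathepsin L, at 1260 CPM in CKO and 1367 CPM in WT pDC, 40.9 and 65.7 times the next class. Besides Cox6a2, the muscle form of a cytochrome oxidase subunit, the list held 2 further genes best known from skeletal muscle. Atp2a1, the SERCA1 calcium pump, reached 167 CPM in CKO and 172 CPM in WT pDC. Pgam2, the muscle phosphoglycerate mutase, reached 120 CPM in CKO and 155 CPM in WT pDC, and the highest other class held under 1 CPM of it in either library. Dntt, the enzyme that adds untemplated bases during antigen receptor recombination, stood at 120 CPM in CKO and 103 CPM in WT pDC. Lag3, an inhibitory receptor known from T cells, stood at 120 CPM in CKO and 214 CPM in WT pDC. The rest were Eldr, the olfactory receptor gene Olfr164, Paqr5, Bst2, Ccdc162, Klk1b27, Zc3h12c, Smim5, Tmem221, the leukaemia inhibitory factor receptor gene Lifr, and Runx2.

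**Figure D1:**
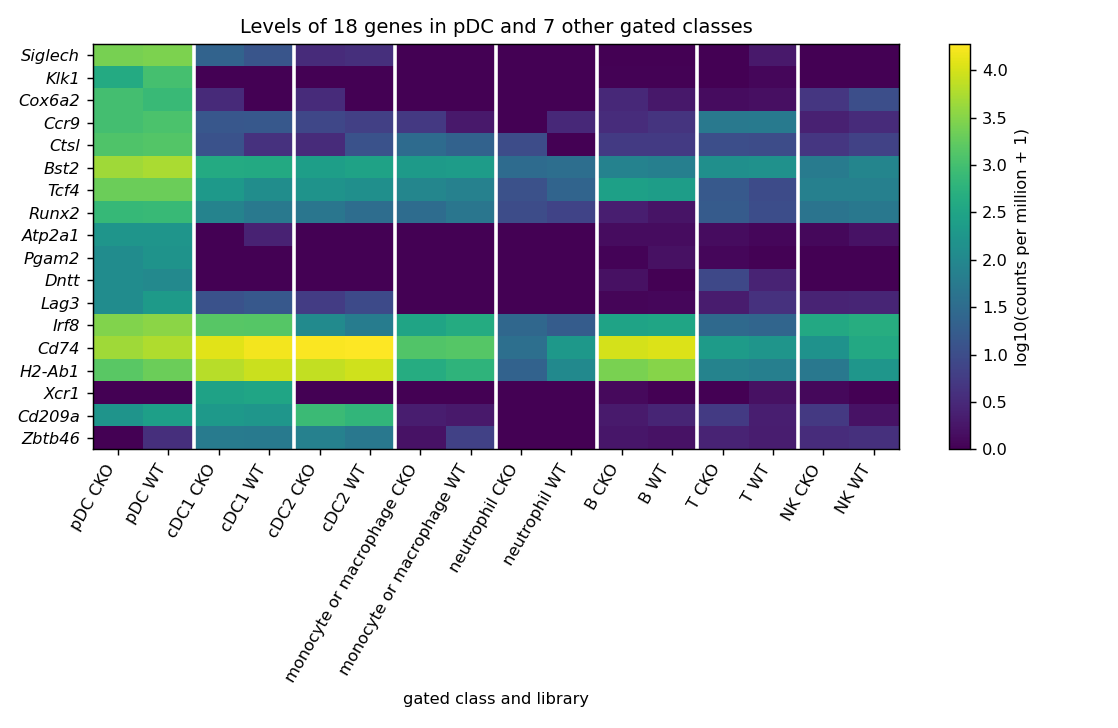
Levels of 18 genes (rows) in pDC and 7 other gated classes (columns, CKO left of WT in each pair), coloured by log10(CPM + 1) of UMIs summed over the cells of a class. Siglech, Klk1, Cox6a2, Ctsl, Atp2a1 and Pgam2 are bright in the pDC columns alone, whereas Cd74 and H2-Ab1 are brighter in the conventional dendritic cell and B cell columns, and Xcr1 is dark in pDC.

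Promoter sequences are shown for 4 of these leading genes because the lineage's factor TCF4 binds E-box motifs. All 4 hold a marked motif, which other leading genes lack, and Siglech, Klk1 and Ccr9 belong to the rule. The windows run from 250 bases before to 50 after the RefSeq start (GRCm38.p6). They lie at chr7:55767934-55768233 (plus strand) for Siglech, chr7:44225110-44225409 (plus) for Klk1, chr9:123766961-123767260 (plus) for Ccr9 and chr11:5803747-5804046 (minus) for Pgam2. Capitals mark CAGCTG, its own reverse complement, and CACCTG read on either strand (CACCTG or CAGGTG).
Siglech: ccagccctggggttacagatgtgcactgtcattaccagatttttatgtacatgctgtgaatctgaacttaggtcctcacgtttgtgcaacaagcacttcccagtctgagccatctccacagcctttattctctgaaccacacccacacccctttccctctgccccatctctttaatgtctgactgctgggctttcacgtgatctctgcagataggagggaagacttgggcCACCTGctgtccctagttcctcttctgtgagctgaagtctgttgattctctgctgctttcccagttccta
Klk1: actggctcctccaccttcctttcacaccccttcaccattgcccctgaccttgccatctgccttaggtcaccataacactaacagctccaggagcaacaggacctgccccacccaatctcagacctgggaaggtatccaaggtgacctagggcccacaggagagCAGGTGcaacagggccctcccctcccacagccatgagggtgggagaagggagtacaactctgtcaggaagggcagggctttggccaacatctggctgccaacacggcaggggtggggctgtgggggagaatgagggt
Ccr9: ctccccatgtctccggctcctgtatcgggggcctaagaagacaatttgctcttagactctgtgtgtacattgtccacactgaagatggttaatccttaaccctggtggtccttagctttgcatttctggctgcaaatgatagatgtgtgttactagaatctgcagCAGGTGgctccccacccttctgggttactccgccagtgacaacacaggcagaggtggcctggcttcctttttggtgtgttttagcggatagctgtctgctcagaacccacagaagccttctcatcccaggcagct
Pgam2: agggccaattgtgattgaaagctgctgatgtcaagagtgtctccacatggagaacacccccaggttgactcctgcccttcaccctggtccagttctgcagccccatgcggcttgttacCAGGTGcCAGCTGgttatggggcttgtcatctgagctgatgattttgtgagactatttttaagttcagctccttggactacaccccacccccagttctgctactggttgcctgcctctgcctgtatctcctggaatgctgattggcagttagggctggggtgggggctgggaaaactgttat
Of the 20 leading genes 16 had such a window, and 10 of the 16 (62.5%) held at least 1 of these motifs, where 32.9% of all 32851 windows did. Siglech, Klk1 and Ccr9 are among the 10, so the share comes in part from genes that chose the cells. The paralogs Klk1 and Klk1b27 are both counted. The windows of Ctsl, Dntt, Zc3h12c, Tmem221, Lifr and Runx2 held no such motif. A motif match is a description of letters and was not tested as a binding site.

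Set against the conventional dendritic cells, pDC held less of the antigen presentation program of MHC class II. Cd74, the invariant chain that guides class II molecules to the endosome, stood at 4631 CPM in CKO pDC, against 12277 CPM in CKO cDC1 and 17773 CPM in CKO cDC2. In WT it stood at 5920 CPM in pDC, 15766 CPM in cDC1 and 18948 CPM in cDC2. Of the measured genes of the class II and costimulation list, pDC were at least 2-fold below cDC1 in both libraries for 9 of 15 and above for 0, where 7.33% of all genes were as far below. Against cDC2 they were below for 14 of 17, where 8.15% of all genes were, and against B cells for 14 of 22, where 14.7% of all genes were. The cDC2 gate itself required at least 5 UMIs of H2-Ab1, a class II gene, so the cDC2 count comes in part from the gate. Genes of endosomal sensing were more often above these classes than below. Against cDC1 11 of 28 measured genes of the TLR7 and TLR9 list were at least 2-fold above and 1 below. Of all genes 10.5% were as far above. Against cDC2 8 of 29 were above and 2 below, where 9.44% of all genes were as far above. Against B cells 9 of 34 were above and 4 below, where 11.4% of all genes were as far above. Tlr7 stood at 83.4 CPM in CKO and 119 CPM in WT pDC, and at 114 and 89.9 CPM in monocytes or macrophages. Tlr9 stood at 3.09 CPM in CKO and 33.3 CPM in WT pDC, and at 4.71 and 4.28 CPM in B cells. Secretory genes depended on the class compared: against B cells pDC were at least 2-fold above for 24 of 42 genes and below for 2, where 11.4% of all genes were as far above. Against cDC2 they were above for 13 of 39 and below for 0, where 9.44% of all genes were as far above. Against cDC1 they were above for 4 of 39 and below for 1, near the 10.5% of all genes that were as far above. Irf8, a factor that cDC1 also need, stood at 2967 CPM in CKO and 3372 CPM in WT pDC, 2.03 and 2.42 times its level in cDC1.

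Rpa1 itself was too rare in pDC to check the deletion. The gene (chr11:75298166-75348324, minus strand) had 2 UMIs in CKO members and 4 in WT members, and the interval of this ratio runs from 0.0504 to 3.88. Since the deleted exons are not given and the tags come from the 3′ end, these counts would not show a deletion elsewhere in the gene. In the B cell gate Rpa1 stood at 32.9 CPM in CKO and 34.8 CPM in WT, above the 6.18 CPM in CKO pDC and 11.1 CPM in WT pDC.

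The share of pDC differed little between the libraries. Members were 0.270% of CKO cells (0.187 to 0.377%) and 0.300% of WT cells (0.212 to 0.411%), a ratio of 0.900 (0.549 to 1.47). T cells set the denominator in part, as the T gate held 6.49% of CKO and 29.2% of WT cells. Among cells outside the T gate pDC were 0.288% in CKO and 0.424% in WT, a ratio of 0.681 (0.416 to 1.11). Among the 3 dendritic cell gates together they were 31.8% in CKO and 35.8% in WT. Smaller differences than these intervals span were not detectable with so few cells.

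Expression in pDC was close in the 2 libraries. A gene was called measured with at least 20 UMIs over all members, and the median log2 ratio of CPM, CKO over WT, was 0.02 over 4870 measured genes. At least 2-fold higher in CKO were 192 genes, 3.94%, and at least 2-fold lower were 133 genes, 2.73%. These are fixed sizes and not tests. The counts ran with depth: among genes with at least 50 UMIs, 27 were as far higher and 20 as far lower.

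**Figure D2:**
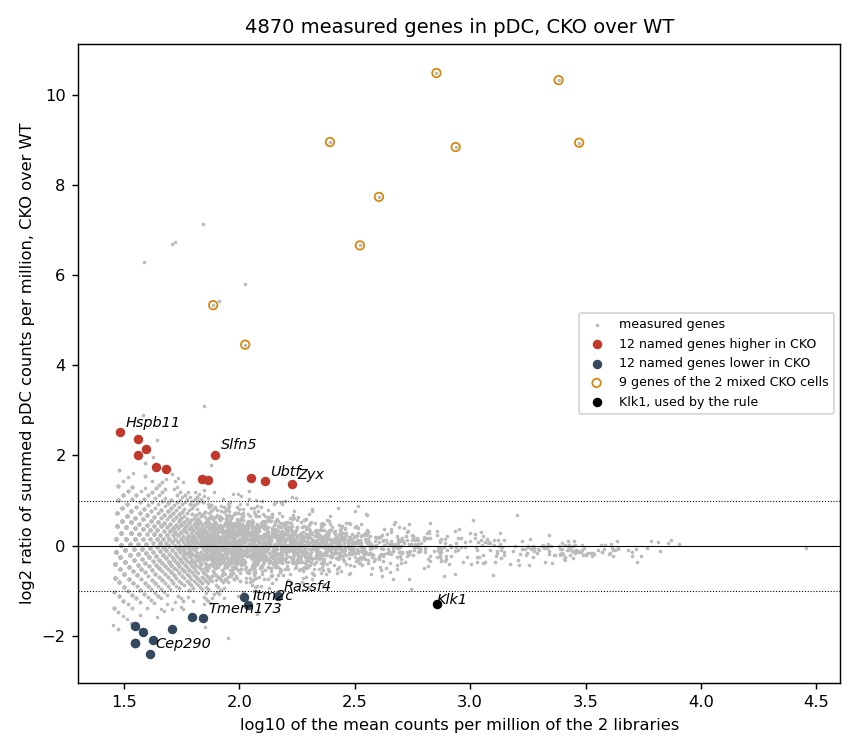
Log2 ratio of summed pDC CPM, CKO over WT (vertical), against the log10 mean level (horizontal) for 4870 measured genes, with dotted lines at 2-fold. The highest points, S100a8, S100a9, Ngp and Ltf among them, rest on the CKO member that carries neutrophil RNA. The 24 named genes lie at low to middle levels, and Klk1 stands below the other genes of its level.

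The genes higher in CKO that stood furthest from a ratio of 1, by the nearer bound of their intervals, were of several kinds. Slfn5, an interferon-inducible Schlafen gene at chr11:82951349-82964840, had 41 UMIs in 15 CKO members and 11 UMIs in 8 WT members, a ratio of 4.15 (2.09 to 8.95). Without the CKO member richest in interferon-response RNA the ratio was 3.24 (1.59 to 7.15). Zyx, encoding the focal adhesion protein zyxin at chr6:42349630-42360213, had 79 UMIs in 30 of 34 CKO members and 34 UMIs in 18 of 38 WT members, a ratio of 2.59 (1.71 to 3.99). Ubtf, a factor of RNA polymerase I transcription at chr11:102304560-102319742, had 61 UMIs in 27 CKO members and 25 UMIs in 11 WT members, a ratio of 2.72 (1.68 to 4.52). In the B cell gate the ratio was 1.18 for Slfn5, 1.20 for Zyx and 1.08 for Ubtf. In the T cell gate it was 1.37 (1.26 to 1.49) for Slfn5, 1.34 (1.22 to 1.47) for Zyx and 1.08 (0.999 to 1.17) for Ubtf. Slfn5 had 1.48 (1.11 to 1.99) in the cDC2 gate and 0.531 (0.399 to 0.699) in the cDC1 gate. With no condition on Klk1, Cox6a2 and Ccr9 Slfn5 had a ratio of 2.10 (1.27 to 3.56) in pDC. For Zyx and Ubtf no member held more than 7 UMIs, and cells of both libraries overlapped in level.

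The other 9 genes of this group rested on fewer counts or fewer cells. Hspb11, encoding a subunit of intraflagellar transport, had 17 UMIs in CKO and 3 in WT, and Galk2, encoding an N-acetylgalactosamine kinase, had 20 in CKO and 4 in WT. The ETS factor gene Elk4 had 21 UMIs in CKO and 5 in WT. Ppwd1 had 24 in CKO and 8 in WT, the retromer gene Snx6 had 33 in CKO and 13 in WT, and the calcium pump gene Atp2b1 had 22 in CKO and 7 in WT. Ifi44, another interferon-induced gene, had 35 UMIs in CKO and 14 in WT, of which 11 of the CKO UMIs lay in 1 cell, the one richest in interferon-response RNA. Without it the ratio of Ifi44 was 1.97 (0.980 to 4.13). A single CKO cell also held 9 of the 19 CKO UMIs of Arhgef18. Lgals3, encoding galectin-3, had 54 UMIs in CKO and 21 in WT, and 26 of the CKO UMIs came from 1 member. Its ratio was 2.86 (1.70 to 4.99), and 1.82 (1.01 to 3.32) without the 2 mixed cells. With no condition on Klk1, Cox6a2 and Ccr9, Lgals3 was lower in CKO, with a ratio of 0.853 (0.637 to 1.14). In the same setting Hspb11 stood at 3.02 (1.19 to 8.62) instead of 6.31, Elk4 at 2.90 instead of 4.68, Arhgef18 at 2.74 (1.24 to 6.47) instead of 4.23 and Atp2b1 at 1.98 (1.04 to 3.86) instead of 3.50.

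Among the genes lower in CKO was Tmem173, which encodes STING, the adaptor through which cytosolic DNA triggers interferon. It had 11 UMIs in 10 of 34 CKO members and 38 UMIs in 21 of 38 WT members, a ratio of 0.322 (0.149 to 0.643). Its ratio in the B cell gate was 0.953, and in the cDC2 gate 0.869 (0.550 to 1.37). Rassf4, of the Ras association domain family, had 30 UMIs in 19 CKO members and 73 UMIs in 33 WT members, a ratio of 0.458 (0.289 to 0.709). Itm2c, encoding a transmembrane protein of the BRICHOS family, had 20 UMIs in 15 CKO members and 56 UMIs in 29 WT members, a ratio of 0.398 (0.226 to 0.673). Arid1a, a subunit of the BAF chromatin remodelling complex, had 21 UMIs in CKO and 52 in WT, a ratio of 0.450 (0.257 to 0.760). Eif6, which acts in assembly of the large ribosomal subunit, had 10 UMIs in CKO and 34 in WT, a ratio of 0.327 (0.144 to 0.678).

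The remaining 7 genes lower in CKO had 4 to 7 UMIs in CKO and 20 to 29 UMIs in WT. They were the ciliary gene Cep290, the ER-shaping gene Atl3, the granule exocytosis gene Unc13d, Ssbp4, the interleukin-11 receptor gene Il11ra1, the lipid transfer gene Pitpnb and Fcgrt. Fcgrt, the neonatal Fc receptor gene, drew 11 of its 25 WT UMIs from 1 cell. With no condition on Klk1, Cox6a2 and Ccr9 the ratio of Atl3 was 0.441 instead of 0.269. Whether pDC and the other gates differ in these ratios was not tested.

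The rule's own genes differed in balance, which is a description since they chose the cells. Klk1, a tissue kallikrein, ran from 0 to 16.8 UMIs per 10000 in CKO members, with a median of 2.64, and from 0 to 43.3 in WT members, with a median of 6.66. Its summed level was 414 CPM in CKO and 1020.5 CPM in WT, a ratio of 0.405 (0.330 to 0.495), and 22 of 34 CKO and 30 of 38 WT members held a UMI. Cox6a2 went the other way, at 1013 CPM in CKO and 785 CPM in WT, and was present in 31 CKO and 28 WT members. Ccr9 stood at 997 CPM in CKO and 1179 CPM in WT. With no condition on these 3 genes, among 37 CKO and 45 WT cells, Klk1 stood at 379 CPM in CKO and 838 CPM in WT, a ratio of 0.453, and Cox6a2 at a ratio of 1.44 (1.23 to 1.70). The paralog Klk1b27 stood at 74.1 CPM in CKO and 128 CPM in WT. Of the 411 stretches of 90 bases in the last 500 bases of the Klk1 transcripts, 56 also occur in another Klk gene, Klk1b5. A read within these stretches would match both genes, and how such reads were counted was not checked.

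**Figure D3:**
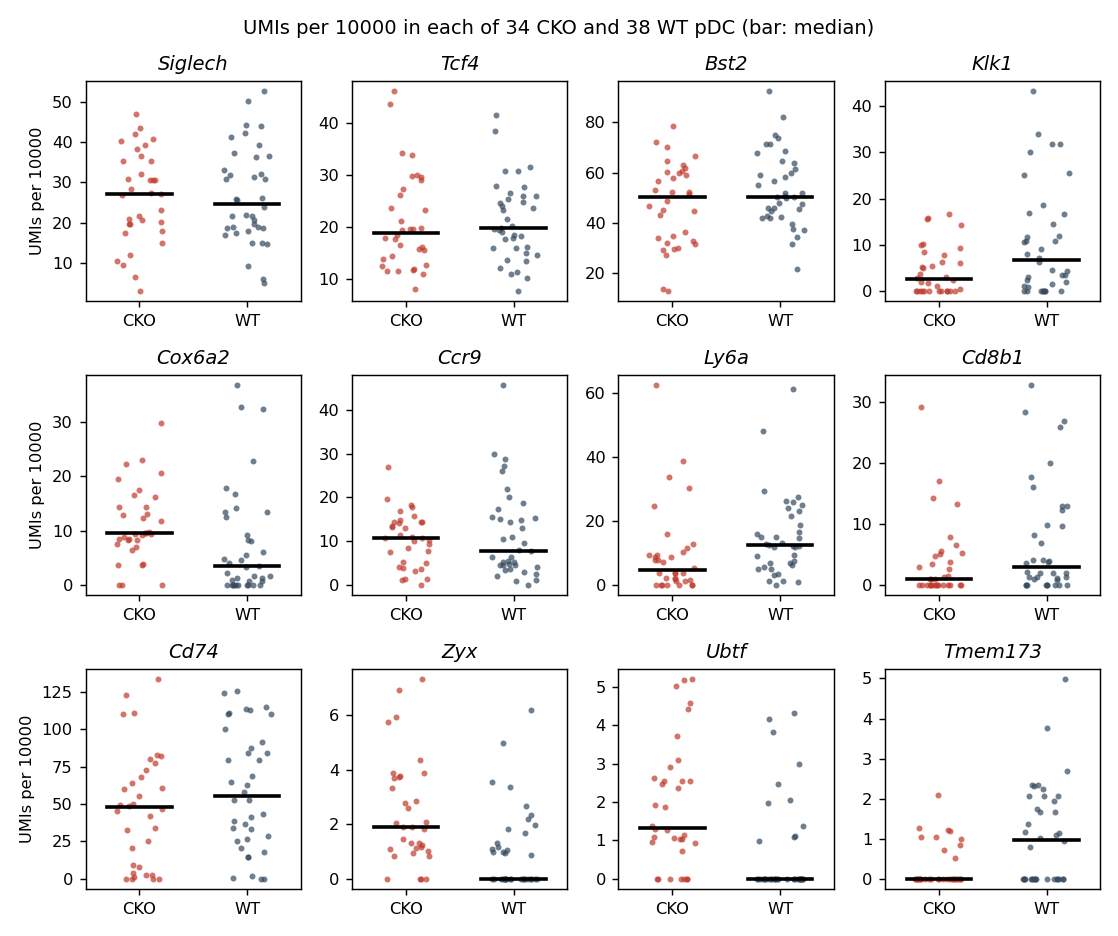
UMIs per 10000 in each of 34 CKO and 38 WT pDC for 12 genes, with a bar at the median. Siglech, Tcf4 and Bst2 cover overlapping ranges in both libraries. Klk1, Ly6a, Cd8b1 and Tmem173 have more low cells in CKO, and Cox6a2, Zyx and Ubtf have more cells at 0 in WT.

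Most pDC identity genes were close to level, and more lay below 1 than above. Of 38 measured genes of the identity list 30 had a ratio below 1, where 47.9% of all measured genes did, and the list's median log2 ratio was -0.15. The list holds Siglech, Klk1, Cox6a2 and Ccr9, whose values chose the cells, so its tally comes in part from the rule. Without the 2 mixed CKO cells 26 of 38 lay below 1 and the median was -0.11. Only Klk1 passed 2-fold. Among the factors, Tcf4 had a ratio of 1.01 (0.905 to 1.12), Runx2 0.945 (0.791 to 1.13), Zeb2 1.18 (0.983 to 1.41), Spib 0.858 (0.625 to 1.17), Irf8 0.880 (0.808 to 0.958) and Bcl11a 0.799 (0.668 to 0.955). Among surface genes, Ly6a, encoding Sca-1, ran up to 62.7 UMIs per 10000 in CKO members, with a median of 4.71, and up to 61.3 in WT members, with a median of 12.4. Its summed level was 982 CPM in CKO and 1542 CPM in WT, a ratio of 0.637 (0.553 to 0.732), and 27 of 34 CKO and 37 of 38 WT members held a UMI. In B cells Ly6a had a ratio of 0.902 (0.882 to 0.922). Lag3 had 39 UMIs in CKO and 77 in WT, a ratio of 0.564 (0.373 to 0.839), and the phospholipid transfer gene Pltp had 112 in CKO and 208 in WT, a ratio of 0.600 (0.472 to 0.758).

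Nucleic acid sensing by the endosomal receptors showed no gene of the 27 measured past 2-fold. The list's median log2 ratio was -0.18, and -0.06 without the 2 mixed cells. The receptors were sparsely sampled. Tlr7 had 27 UMIs in CKO and 43 in WT, Tlr12 had 21 in CKO and 27 in WT, and Tlr9 had 1 in CKO and 12 in WT, a ratio of 0.0928 (0.00217 to 0.627). Unc93b1, the chaperone that carries these receptors to endosomes, was found in all members, at 522 CPM in CKO and 735 CPM in WT, a ratio of 0.710 (0.582 to 0.864). Irf7, the factor that drives interferon transcription, stood at 210.0 CPM in CKO and 319 CPM in WT, a ratio of 0.658 (0.480 to 0.896). Nfkbia, the inhibitor of NF-κB, had a ratio of 0.557 (0.394 to 0.779), and the subunit gene Nfkb1 had 1.53 (1.04 to 2.27). Both were single genes of a list whose other members lay on either side of 1.

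The products of activated pDC were rarely detected. No UMI of any of the listed type I or type III interferon genes was found in a member of either library. Ccl4 had 48 UMIs in CKO and 57 in WT, a ratio of 0.938 (0.625 to 1.40), while Tnf had 2 in CKO and 10 in WT, and Il6, Il10, Il12b, Cxcl9 and Cxcl10 had none. Il12a had 7 UMIs in CKO, 5 of them in 1 cell, and none in WT, and Gzmb had 4 in CKO, all in 1 cell, and none in WT. A count of 0 over all members allows up to 3 UMIs.

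The response to type I interferon was split within its list. Of 28 measured genes 20 had a ratio above 1, where 52.1% of all measured genes did. At least 2-fold higher in CKO were 5, where 3.94% of all measured genes were: Slfn5, Ifi44, Oasl2, Herc6 and Parp14. None was as far lower, and the median log2 ratio was 0.22. Without the 2 mixed cells 6 were as far higher and the median was 0.20. Oasl2, a relative of the oligoadenylate synthetases, had 20 UMIs in CKO and 6 in WT, Herc6, an ISG15 ligase, had 27 in CKO and 11 in WT, and Parp14, an ADP-ribosyltransferase, had 32 in CKO and 15 in WT. Ifi203, of the Ifi200 family, was broader, with 138 UMIs in 29 CKO members and 83 UMIs in 28 WT members, a ratio of 1.85 (1.40 to 2.46). The most abundant genes of the list did not follow: Bst2 had a ratio of 0.849 (0.793 to 0.909), Ly6a and Irf7 are given above, Ly6c2 had 0.872 (0.789 to 0.964), and Ifi27l2a had 1.09 (0.946 to 1.26). Summed over the list, CKO held 12925 CPM and WT 13729 CPM.

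Part of this difference lay in 1 cell. The CKO member with 222 UMIs of the list (Bst2 and the other identity genes left out) held 10 of the 15 CKO UMIs of Ifit2, 14 of the 35 of Isg15, 11 of the 27 of Herc6 and 10 of the 41 of Slfn5. It was a plain pDC by its other genes, with 21 Siglech, 31 Tcf4 and 46 Bst2 UMIs, and its leading genes against the other CKO members began with Ifit1, Ifi204, Ifit2 and Rsad2. Without it 2 of 27 measured genes were at least 2-fold higher in CKO, the median log2 ratio was 0.11, and 16 lay above 1. Ifi203 then had a ratio of 1.55 (1.16 to 2.09), Parp14 2.07 (1.06 to 4.19), Herc6 1.67 (0.730 to 3.99) and Isg15 0.834 (0.452 to 1.51). Oasl2 then had 12 UMIs in CKO and 6 in WT, under the minimum of 20, at a ratio of 2.30 with an upper bound of 7.48 and a lower bound under 1. The median count of these UMIs over the other CKO members was 36, and over the WT members other than their highest it was 39.

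Of 12 measured genes of the class II list 11 had a ratio below 1 in pDC, where 47.9% of all measured genes did, none past 2-fold, with a median log2 ratio of -0.40, and without the 2 mixed cells the count was the same and the median -0.34. Cd74 ran from 0 to 134 UMIs per 10000 in CKO members, with a median of 47.8, and from 0 to 126 in WT members, with a median of 55.4, a summed ratio of 0.782 (0.732 to 0.836). The ratio was 0.774 (0.696 to 0.860) for H2-Aa, 0.738 (0.658 to 0.828) for H2-Ab1 and 0.758 (0.649 to 0.884) for H2-Eb1. Ifi30, a thiol reductase that prepares antigen in endosomes, had 132 UMIs in CKO and 245 in WT, a ratio of 0.600 (0.482 to 0.744). Other gates differed among themselves: H2-Ab1 had a ratio of 0.826 in B cells, 0.752 in cDC1 and 0.821 in cDC2, but 1.14 (1.03 to 1.27) in the T cell gate, where Cd74 had 1.31 (1.23 to 1.40).

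Of 22 measured class I genes 17 lay below 1, where 47.9% of all measured genes did, and none passed 2-fold. The median log2 ratio was -0.29, and -0.26 without the 2 mixed cells, where 1 gene passed 2-fold downward. B2m, the light chain, stood at 2285 CPM in CKO and 2801 CPM in WT, a ratio of 0.816 (0.741 to 0.898). H2-K1 had a ratio of 0.762 (0.688 to 0.844) in pDC, 0.808 (0.798 to 0.817) in B cells and 1.01 (0.881 to 1.15) in cDC1. H2-T23, encoding the nonclassical molecule Qa-1, had 0.643 (0.542 to 0.762) in pDC and 0.854 (0.835 to 0.874) in B cells. Whether pDC differ from these gates was not tested.

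**Figure D4:**
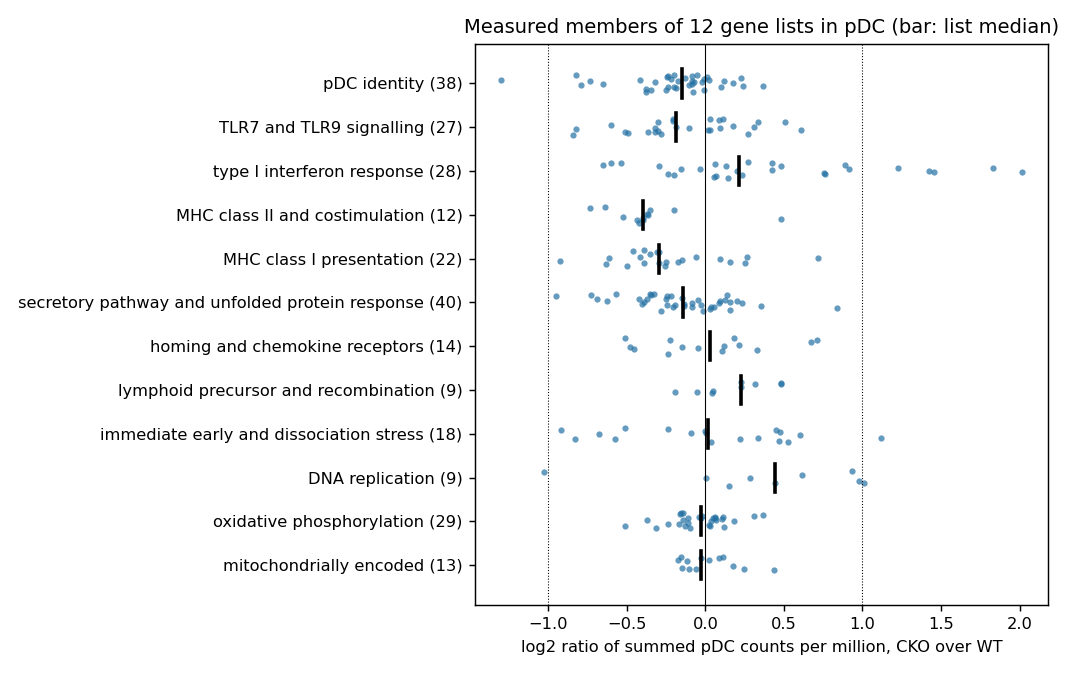
Log2 ratio of summed pDC CPM, CKO over WT, for the measured members (points) of 12 gene lists, with the number measured in parentheses and a bar at each list's median. The class II and class I points lie mostly left of 0, the interferon-response points spread to the right as far as Slfn5, and the oxidative phosphorylation and mitochondrially encoded points gather around 0.

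Class II genes were among those that varied most between members. Besides Malat1, the genes whose counts varied most over cells relative to their mean, after thinning every cell to 5000 UMIs, were Cd74, Crip1, H2-Ab1, Ly6d, H2-Aa, Ly6c2 and Cd8b1. Cd74 had a variance-to-mean ratio of 16.1 in CKO and 15.2 in WT, where the median gene had 1.09 in both. The thinned sum of H2-Aa, H2-Ab1, H2-Eb1 and Cd74 ran from 0 to 150 UMIs in 34 CKO members, with a median of 39.5, and from 0 to 139 in 36 WT members, with a median of 53.5. Members with under 10 UMIs of this sum were 10 of 34 in CKO (29.4%, 15.1 to 47.5%) and 5 of 36 in WT (13.9%, 4.67 to 29.5%). Without thinning they were 10 of 34 in CKO and 4 of 38 in WT (10.5%, 2.94 to 24.8%). The intervals overlap. The threshold was chosen after the values were seen, and 4 CKO and 4 WT members lay near it, with 5 to 19 UMIs.

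Several genes outside the sum followed this class II sum over cells in both libraries. The values are Spearman rank correlations over 34 CKO and 38 WT cells, which share a library and its normalization, and are given as a description. Cd8b1, encoding the CD8 beta chain, had a correlation of 0.74 in CKO and 0.63 in WT. Iglc3, an immunoglobulin light chain constant gene transcribed in pDC, had 0.69 in CKO and 0.66 in WT. H2-Q7 had 0.61 in CKO and 0.64 in WT, H2-K1 0.58 in CKO and 0.55 in WT, and Ly6a 0.51 in CKO and 0.55 in WT. Jun followed it as well, with 0.45 in CKO and 0.61 in WT. Over all 2419 genes compared the median absolute correlation was 0.134 in CKO and 0.130 in WT, and the 95th percentile was 0.388 in CKO and 0.379 in WT. Vim, encoding vimentin, ran against the sum, with -0.43 in CKO and -0.69 in WT, as did Crip1, with -0.52 in CKO and -0.34 in WT. Lineage genes were mixed: Siglech had 0.02 in CKO and -0.09 in WT, and Bst2 had 0.06 in CKO and -0.03 in WT. Tcf4 had 0.26 in CKO and 0.03 in WT, while the pDC marker Klra17 had 0.49 in CKO and 0.47 in WT. Among the rule's genes Klk1 had 0.37 in CKO and 0.43 in WT, Ccr9 had 0.40 in CKO and 0.43 in WT, and Cox6a2 had -0.28 in CKO and -0.24 in WT. In size, Klk1 in CKO, Crip1 in WT and Cox6a2 in both libraries lay under the 95th percentile of all genes compared.

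**Figure D5:**
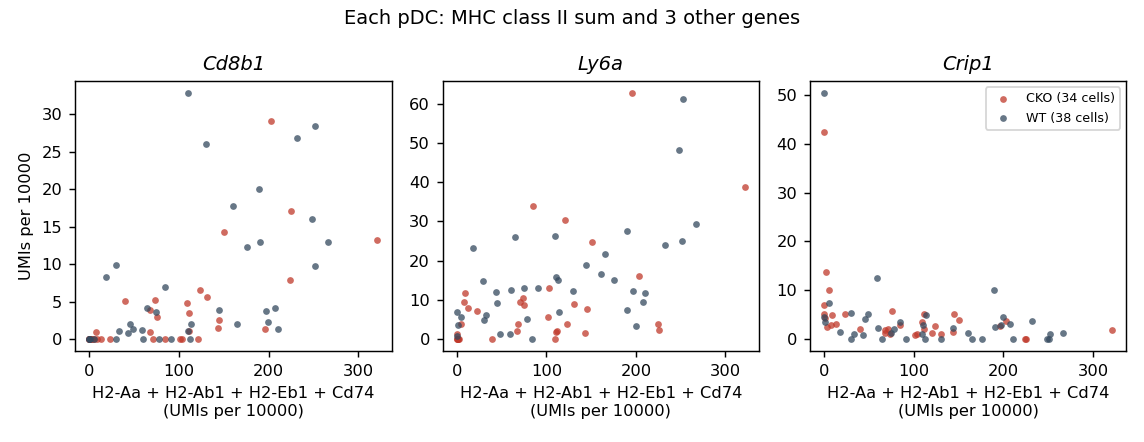
Each pDC (red, 34 CKO; dark blue, 38 WT) by its sum of H2-Aa, H2-Ab1, H2-Eb1 and Cd74 (horizontal) and by Cd8b1, Ly6a or Crip1 (vertical), all in UMIs per 10000. High values of Cd8b1 and Ly6a lie toward the right in both libraries, and the highest Crip1 value of each library belongs to a cell with none.

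The genes that followed the class II sum had ratios on both sides of 1. Of those in the same direction as the sum, Jund had a ratio of 1.26 (1.04 to 1.52), Igkc of 1.21 (0.998 to 1.46) and Klra17 of 1.02. Cd8b1, Jun, Fosb, Iglc3 and H2-Q7 lay below 1. Cd8b1 stood at 374 CPM in CKO and 732 CPM in WT, a ratio of 0.510 (0.408 to 0.635), while B cells, which should lack it, held 0.295 CPM in CKO and 2.02 CPM in WT. Cd8a, which did not follow the sum (correlation 0.25 in CKO and 0.06 in WT), stood at 136 CPM in CKO and 238 CPM in WT. Its ratio was 0.570 (0.387 to 0.828). T cells, which also make these RNAs, were a smaller share of the CKO library, as given above, and the part of free T cell RNA in these ratios was not tested. Jun stood at 590 CPM in CKO and 946 CPM in WT, a ratio of 0.624 (0.520 to 0.747), and Fosb at 139 CPM in CKO and 263 CPM in WT. The ratio of Fosb was below 1 in every other gated class too, among them B cells at 0.711 (0.688 to 0.735) and T cells at 0.531 (0.389 to 0.712). Iglc3 had a ratio of 0.779 (0.675 to 0.899) and H2-Q7 of 0.750 (0.631 to 0.891). On the other side, Tmsb10 stood at 1229 CPM in CKO and 832 CPM in WT, a ratio of 1.48 (1.27 to 1.72). In summed counts fewer class II-high cells and less class II RNA per cell cannot be told apart.

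Each library held 1 member with the most UMIs of Crip1, Lgals3 and Vim. Members without a UMI of the class II sum were not limited to these cells. In CKO it held 58 UMIs of Crip1, 26 of Lgals3, 37 of Vim and none of Cd74 or H2-Ab1, beside 4 UMIs of Siglech, 15 of Tcf4 and 44 of Bst2. In WT it held 60 UMIs of Crip1, 11 of Lgals3, 27 of Vim and none of Cd74 or H2-Ab1, beside 7 of Siglech, 9 of Tcf4 and 60 of Bst2. Neither held Klk1 or Cox6a2, and both entered through Ccr9. Ms4a6c and Runx1 were among the 15 leading genes of both cells, and Scrublet's score quantile marked the WT cell alone.

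Secretory genes were near level with exceptions. Of 40 measured genes of the secretory and unfolded protein list none passed 2-fold, and the median log2 ratio was -0.14. Xbp1, the factor that expands the secretory apparatus, had 76 UMIs in CKO and 131 in WT, a ratio of 0.646 (0.480 to 0.863). Mzb1, an ER chaperone of antibody-secreting B cells and pDC, stood at 343 CPM in CKO and 191 CPM in WT, a ratio of 1.79 (1.32 to 2.46), and at 1.94 without the 2 mixed cells. Over the 12 plasma cell markers, Mzb1 among them, CKO pDC held 435 CPM and WT pDC 238 CPM, a summed ratio of 1.83 (1.39 to 2.42). Of these 12 genes 2 were measured, Mzb1 and Slamf7, and Slamf7 passed 2-fold upward, with 13 UMIs in CKO and 7 in WT. Sdc1 had 13 UMIs in CKO and 1 in WT, Jchain had 1 in CKO and 3 in WT, and Prdm1, Derl3, Iglv1, Igha and Ighg2b had none in either library. The part of plasma cell RNA in the Mzb1 ratio was not tested.

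Homing and precursor genes gave single differences within 2-fold. Of 14 measured homing genes none passed 2-fold, 7 lay on each side of 1, and the median log2 ratio was 0.03. Itga4, the alpha 4 integrin, had 142 UMIs in CKO and 99 in WT, a ratio of 1.60 (1.23 to 2.09). Ccr2, the receptor by which cells leave bone marrow, had 56 UMIs in CKO and 38 in WT, a ratio of 1.64 (1.07 to 2.55). Of 9 measured lymphoid precursor genes 7 lay above 1, where 52.1% of all measured genes did, and none passed 2-fold. The median log2 ratio of this list was 0.23, and its summed ratio was 1.02 (0.957 to 1.09). Il7r had 127 UMIs in 32 CKO members and 101 UMIs in 31 WT members, a ratio of 1.40 (1.07 to 1.84), and Dntt had 1.17 (0.729 to 1.89).

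Few genes tied to the function of RPA were measured. Past 2-fold lay 3.94% of all measured genes upward and 2.73% downward, against which the counts of these short lists are to be read. Of 9 measured replication genes 2 passed 2-fold upward, Mcm2 and Mcm3, and 1 downward, Gins4, with 3 upward and 0 downward without the 2 mixed cells. For the Mcm genes 1 CKO member held much of the sum, 53.8% of the CKO UMIs of Mcm2 and 44.4% of those of Mcm3. Stmn1 had 38 UMIs in CKO and 12 in WT, of which 23 lay in 1 CKO cell. Of 7 measured RPA and ATR checkpoint genes 1 passed 2-fold, Nabp2, encoding a single-stranded DNA binding protein, with 20 UMIs in CKO and 10 in WT. Among p53 targets Bax, a mediator of apoptosis, had 26 UMIs in CKO and 55 in WT, a ratio of 0.526 (0.317 to 0.854), and of 11 measured genes 1 lay past 2-fold upward, Trp53inp1, with 17 UMIs in CKO and 9 in WT. Of 10 measured genes of cytosolic nucleic acid sensing, Tbk1 and Aim2 passed 2-fold upward, with 14 and 19 UMIs in CKO and 7 and 10 in WT, and Tmem173 downward. Without the CKO member richest in interferon-response RNA Aim2 had a ratio of 1.96 (0.846 to 4.78), which left Tbk1 alone past 2-fold upward.

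Stress and metabolic genes were near level. The immediate early and dissociation list had a median log2 ratio of 0.02 over 18 measured genes, with Jun and Fosb lower in CKO as given, the chaperone gene Hsph1 past 2-fold upward at 2.23, and Hspa8 at 1.17 (1.01 to 1.35). The 29 measured nuclear genes of oxidative phosphorylation had a median of -0.03, none past 2-fold, and the 13 mitochondrially encoded genes had a median of -0.03. Tsc22d3, a glucocorticoid-induced gene, had 14 UMIs in CKO and 37 in WT pDC, a ratio of 0.421 (0.210 to 0.798), and a ratio of 0.584 (0.566 to 0.603) in B cells.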

How the data were processed

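Whole UMI counts per gene and barcode, deposited by the authors with no normalization per the file headers, were used from 1 CKO and 1 WT library. The submitters' processing notes name mm10, Seurat 4.0.3 and Cell Ranger 5.0.0. The file headers give Cell Ranger 6.0.2. Barcodes numbered 12958 in CKO and 13291 in WT, with 76910129 and 84240951 UMIs. The members and gene lists were chosen with earlier results of these data known, and the class names were rebuilt from counts, which alone can make results differ from the study.

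UMIs were summed over members and divided by their total (323879 in CKO, 360619 in WT). CPM carry exact Poisson intervals, ratios exact conditional binomial intervals and shares Clopper-Pearson intervals, at 95%. They do not cover the spread between cells or animals. Log2 ratios used a pseudocount of 1 CPM. Zero counts stand for up to 3 counts over all members of a library. Other classes were gated by UMIs of fixed markers and used with at least 20 cells in each library: 29 CKO and 35 WT cells for cDC1, 44 CKO and 33 WT for cDC2. Plasma cells, at 18 in CKO, were not used. Up to 12 genes in each direction were named, past 2-fold, by the interval bound nearest 1, leaving out the rule's genes, antigen receptor, mitochondrial, ribosomal, sex-linked and unnamed genes, genes with over 50% of the higher library's UMIs in 1 cell, and genes under 10% of their highest gated class. List members and the 20 profile genes were also named. Genes that followed the class II sum, and the single cells described, were chosen after their values were seen. No doublet caller was applied in the main results, since Scrublet's own threshold (scanpy 1.11.5) marked 9 CKO cells (0.0714%) and 532 WT cells (4.20%), and a score quantile was an alternative. The calculation was tested on simulated counts. Gene symbols follow the files, and promoters are from RefSeq. Software was scipy 1.17.1, matplotlib 3.10.9, pandas 2.3.3 and numpy 2.4.6 under Python 3.11.15.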

Additional observations from a re-analysis of the deposited data

Results flagged for a closer look

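Slfn5 lay on opposite sides of 1 in pDC and in cDC1. Its CKO over WT ratio was 4.15 (2.09 to 8.95) in pDC and 0.531 (0.399 to 0.699) in the cDC1 gate, where it had 72 UMIs in CKO and 192 in WT. Other interferon-response genes did the same, with Oasl2 at 3.71 in pDC and 0.236 in cDC1, Herc6 at 2.73 in pDC and 0.421 in cDC1, and Slfn8 at 1.90 in pDC and 0.296 in cDC1. In pDC 8 of the 20 CKO UMIs of Oasl2 and 11 of the 27 of Herc6 lay in 1 cell, without which the ratios were 2.30 for Oasl2, with a lower bound under 1, 1.67 (0.730 to 3.99) for Herc6 and 1.71 (1.02 to 2.89) for Slfn8. Irf7 lay below 1 in both, at 0.658 in pDC and 0.527 in cDC1. Lgals3 had a ratio of 2.86 in pDC and 0.727 (0.599 to 0.881) in the cDC2 gate, and 26 of its 54 CKO pDC UMIs came from 1 cell. In the T cell gate Lgals3 had 3.69 (3.23 to 4.22), and in the cDC1 gate 1.23 (1.06 to 1.43). With 1 library a genotype these differences between gates were not tested.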

How the results depend on the processing

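The share ratio kept its side of 1 under all 11 alternatives tried (0.681 to 0.957), but every interval spanned 1. With a stricter cell filter, for example, the ratio was 0.957 (0.574 to 1.59). The counts of genes past 2-fold stayed within 1.5 times of 192 higher and 133 lower under 12 alternatives, which changed the gate, the cell filter, the scale, the doublet treatment or left out single cells. The depth minimum was the exception. With at least 50 UMIs 27 genes were higher and 20 lower, and with at least 10 UMIs 484 were higher and 400 lower, as fewer or more sparse genes entered. Which genes passed was less stable than how many: without the Klk1, Cox6a2 and Ccr9 condition 129 genes of the 192 higher were still higher, and 89 of the 133 lower were still lower, and with no Cd79a UMI allowed 113 and 74 were. The count above every other class ranged from 103 to 127. Lgals3 turned to 0.853 without that condition and was 5.24 without cells marked by Scrublet's score quantile. The cause was not tested. Of the list medians recomputed, 134 stayed close and 15 moved. Leaving out the 2 mixed cells, or the CKO member richest in interferon-response UMIs, was chosen after seeing the data. No paired analysis was possible because each genotype has 1 library. A member total of 323879 UMIs in CKO and 360619 in WT limits what can be seen of genes under about 20 UMIs.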
